A study of Mus musculus with 2 samples.

Results

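The genes described here are 34 genes of the interferon response, antigen presentation and complement, of 55536 gene rows in the tables. They were chosen by name from a fixed list of symbols, with earlier results of these data known. By role they are 4 interferon signalling and transcription factors, 16 interferon-induced effectors, sensors and modifiers, 7 class I genes, 4 class II genes and 3 complement genes. They were measured by poly(A)+ RNA-seq in left cerebral cortex of B6NCrl mice (a C57BL/6 substrain) aged 6 months, from 20 ng of RNA, with Nextera tagmentation (cutting and tagging of cDNA by a transposase). The labels gave 1 group and 2 libraries, biological replicates 1 and 2, with no treatment, transgene or second genotype. Both libraries carried 1 donor entry and separate biosample records, and the labels called the tissue male in one field and gave the sex as not collected in another. P-values and spreads therefore measure the difference between these libraries, which may be technical.

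Interferons are secreted proteins that signal through cell surface receptors, Janus kinases and STAT proteins. Type I interferon brings a complex that includes STAT2 and IRF9 to the interferon-stimulated response element (ISRE), and interferon gamma acts through the GAS element; both switch on genes that block viruses and raise antigen presentation. Class I molecules, made of a heavy chain and beta-2-microglobulin, show peptides from inside the cell, class II molecules show peptides taken up from outside, and complement tags and opsonises targets. In brain, microglia, border macrophages and vessels are known sources of these genes, and neurons carry little class I.

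The promoters were looked at first, because the ISRE and GAS letters are the sequence feature by which these genes are usually grouped. RefSeq promoter windows (GRCm38.p6, 250 bases before to 50 after each start) matched 25 of the 34 genes by symbol, with 29 windows. The ISRE core, searched as GAAA, any pair of bases and GAAA on either strand, lay in 11 of the 29 windows (37.9%) against 3.44% of all 32851 windows. Among the induced effectors it lay in 8 of 13 windows. The GAS letters TTCNNNGAA, on either strand, lay in 6 of 29 windows (20.7%) against 8.30%. The ISRE core may share bases with a GAS match or with a second copy of itself, as it does in Bst2, Isg15 and Oas1a. CCAAT, the box bound by NF-Y, lay in 16 of 29 windows (55.2%) against 37.4%, in 7 of 7 class I windows and in both class II windows. A match is a description of letters, not a bound site. The stretches below are shown because they hold the ISRE core of the effectors with a window that were furthest apart between the libraries (Isg15, Bst2, Ifit3, Ifit1), of the class I light chain (B2m) and of a signalling factor (Stat2), and the GAS letters of Irf1. All are written 5′ to 3′ on the strand of the gene, with the matched letters in capitals; in Stat2, Ifit3 and Ifit1 the core reads on the other strand, as TTTC, any pair of bases and TTTC.
Isg15, chr4:156200860-156200911, minus strand: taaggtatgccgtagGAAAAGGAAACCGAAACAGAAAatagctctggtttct
Bst2, chr8:71537572-71537623, minus strand: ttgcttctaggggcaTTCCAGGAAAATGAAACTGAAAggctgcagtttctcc
Oas1a, chr5:120907526-120907560, minus strand: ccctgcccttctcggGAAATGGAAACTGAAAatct
Ifit3, chr19:34583358-34583431, plus strand: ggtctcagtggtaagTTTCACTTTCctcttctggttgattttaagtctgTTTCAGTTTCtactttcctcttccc
Ifit1, chr19:34640770-34640828, plus strand: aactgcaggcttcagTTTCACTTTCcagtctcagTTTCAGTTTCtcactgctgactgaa
B2m, chr2:122147533-122147572, plus strand: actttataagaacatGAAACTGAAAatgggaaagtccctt
Stat2, chr10:128270261-128270300, plus strand: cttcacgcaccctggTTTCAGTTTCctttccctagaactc
Irf1, chr11:53769909-53769947, plus strand: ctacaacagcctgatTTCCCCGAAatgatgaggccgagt
Isg15 holds 3 overlapping cores, and Bst2 holds 2 overlapping cores, the first of which shares bases with a GAS match. Oas1a is shown beside them as an effector with the same letters that was not called between the libraries. The spelling with CT between the GAAA blocks recurred in 6 of 29 windows against 0.231% of all windows; it was looked for after the matches had been seen.

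Of 51888490 gene fragments in replicate 1 the 34 genes took 29181 (0.0562%), and of 26776276 in replicate 2 they took 14963 (0.0559%). A level is in TPM (fragments scaled by transcript length and library depth), and detected means that neither library was under 1 TPM, which held for 29 of the 34 and for 13800 of all genes. For each gene, replicate 2 was set against replicate 1 by an exact binomial test (two-sided) on fragments, with Benjamini-Hochberg adjustment over the 14656 genes whose mean CPM (fragments scaled by library depth alone) reached 1. A log2 ratio is replicate 2 over replicate 1 with 0.5 CPM added, and brackets give its 95% Clopper-Pearson interval without that addition, which covers counting error only. At this depth 62.6% of all tested genes were called, 36.4% lower and 26.2% higher in replicate 2, so a call alone sets a gene apart from few others. With a further threshold of 1.5-fold, 17.2% of all tested genes were lower and 3.22% higher. The median log2 ratio of all tested genes was -0.03 and their central 90 percent ran from -1.39 to 0.49; scaled by total counts instead, that median was 0.09 and the split of all calls moved from 5328 lower and 3843 higher to 4134 and 5776.

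The levels of the 34 genes spanned from 0.15 TPM for C3 to 248 for B2m in replicate 1, and from 0.13 for Parp14 to 320.3 for B2m in replicate 2. Their summed level was 710.2 TPM in replicate 1 and 715.4 in replicate 2. B2m alone was 35.0% and 44.8% of that sum, and the 5 highest genes (B2m, Ifi27, H2-D1, Ifitm3, Ifitm2) were 69.4% and 75.4%. The median of the 34 genes, undetected ones included, was 4.90 ± 0.820 TPM (SD, n = 2). Over all detected genes, a set that leaves undetected genes out, the median was 12.59. Of the 29 detected genes, 10 lay above that value, from B2m down to Xaf1 at 15.5 ± 1.18 TPM. In the order by mean TPM most neighbours could not be told apart: in 9 of the steps down the order, those below B2m, Ifi27, Ifitm3, Ifitm2, Tapbp, Xaf1, Usp18, Oas1a and Trim25, did the range over the libraries not overlap that of the next gene.

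**Figure D1:**
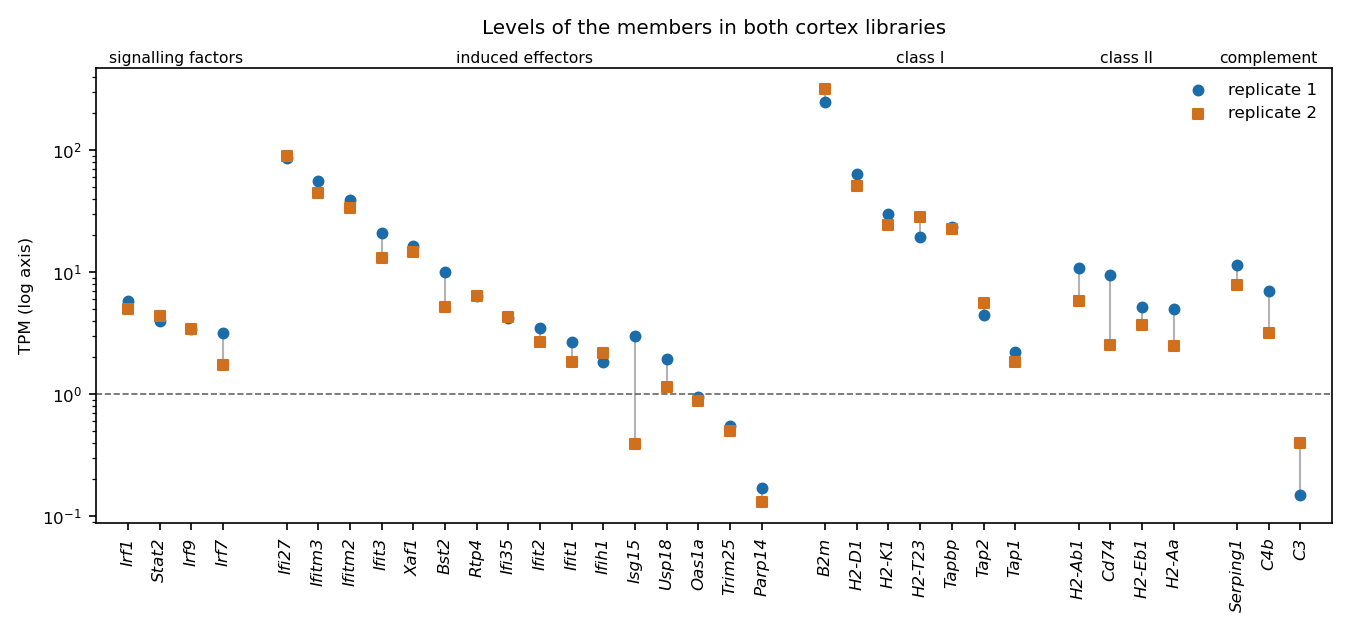
TPM (log axis) of the 34 genes in replicate 1 (circles) and replicate 2 (squares), grouped by role, with a dashed line at the detection threshold of 1 TPM. B2m is highest at 248 and 320.3, the class II and complement genes are higher in replicate 1 except C3, and Isg15 is at 3.02 and 0.39.

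Between the libraries, 18 of the 31 tested genes were lower in replicate 2 (58.1%, against the 36.4% of all genes), 2 were higher (6.45%, against 26.2%) and 11 were not called. At 1.5-fold, 10 of 31 (32.3%) were lower, against 17.2%, and 0 were higher, against 3.22%. Their median log2 ratio was -0.33, and 26 of 31 lay below 0. With total count scaling the counts were 12 lower and 4 higher, against 4134 and 5776 of 14649 genes in all. Isg15, C3 and Parp14 had a mean CPM under 1 and were not tested. TPM and fragment ratios differed in sign for 5 genes, Rtp4, Ifi35, Irf9, Ifih1 and C3, none of them called. By median log2 ratio the class II and complement genes stood furthest below 0. The class I median lay nearest to 0, with ratios on both sides of it.

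**Figure D2:**
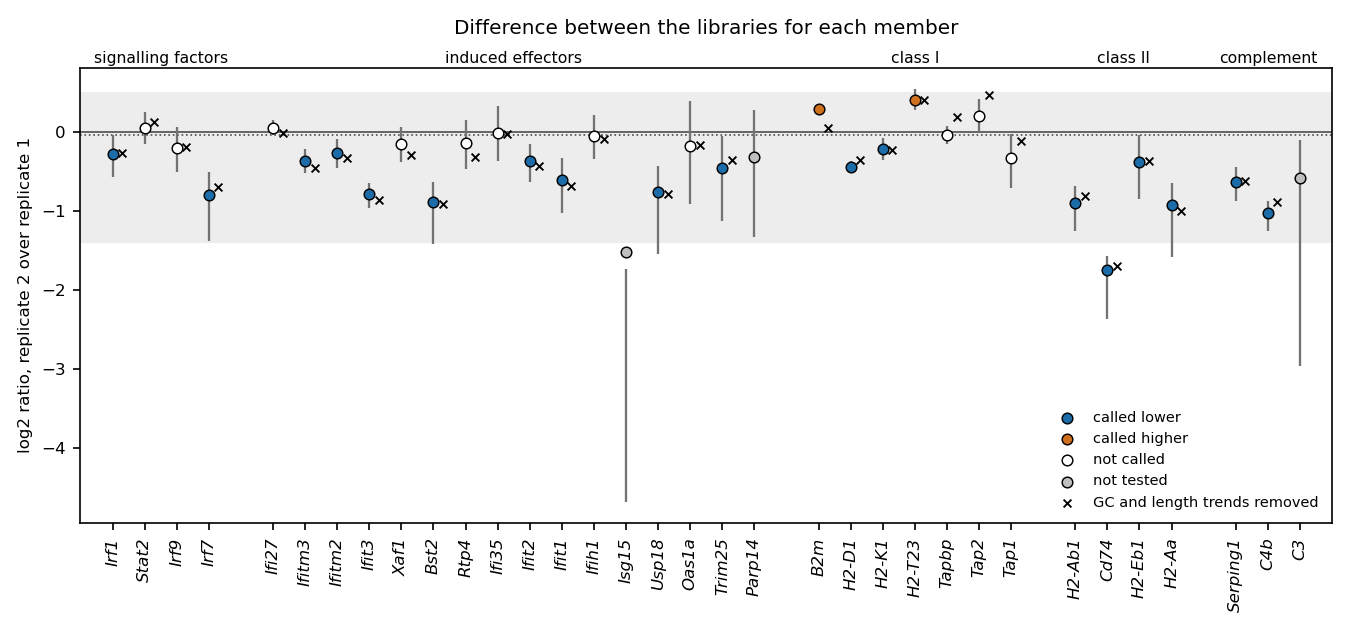
Log2 ratio of each gene (points, with 0.5 CPM added) and its 95% Clopper-Pearson interval without that addition (lines), with the ratio after GC and length trends were removed (crosses). The grey band is the central 90 percent of all tested genes, from -1.39 to 0.49, and the dotted line their median at -0.03; Cd74 at -1.74 lies below the band, and the Isg15 point lies above its interval because of the added CPM.

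The signalling factors were low and close to one another, with a median of 3.79 ± 0.131 TPM (SD, n = 2). Of the 4, 2 were lower in replicate 2 (50%, against 36.4% of all genes). Irf1, a transcription factor of interferon gamma responses, stood at 5.79 TPM in replicate 1 and 4.94 in replicate 2 and was called lower with a log2 ratio of -0.28 (-0.57 to -0.04). That call was lost with total count scaling, without the filter on low counts and in the second quantification. Irf7, which amplifies type I interferon production, stood at 3.17 and 1.72 TPM on 199 and 59 fragments. It was 1.90-fold lower in replicate 2 (adjusted p = 1.72e-05, exact binomial test), the one factor past 1.5-fold. Its TPM in replicate 2 lay below the deposited interval for it, 2.06 to 4.15. Stat2 and Irf9, which bind the ISRE in 1 complex, were level between the libraries in TPM, at 3.98 and 4.33 for Stat2 and at 3.42 and 3.44 for Irf9, and were not called; their log2 ratios had intervals of -0.16 to 0.26 and -0.51 to 0.07. Irf9 shares exon bases with Rnf31 on the same strand, and the quantifications named different main transcripts for it; in the second it was called lower, at a log2 ratio of -0.24.

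The 16 effectors, sensors and modifiers spread over the widest range of levels in fold terms. Of the 14 tested, 8 were lower in replicate 2 (57.1%, against 36.4% of all genes) and 0 higher (against 26.2%). At 1.5-fold 4 were lower (28.6%, against 17.2%). Ifi27, a small mitochondrial membrane protein and a common marker of interferon exposure, led at 85.5 and 89.8 TPM and was not called, with a log2 ratio of 0.06 (-0.04 to 0.16). With total count scaling it was called higher, at 0.19, and with the GC and length trends removed its ratio was -0.01. Ifitm3 and Ifitm2, membrane proteins that hinder virus entry, both on chromosome 7, followed. Ifitm3 stood at 55.4 and 44.3 TPM, with a log2 ratio of -0.36. Ifitm2 stood at 39.4 and 33.5 TPM, with a log2 ratio of -0.26. Both were called lower, and Ifitm3 was 1.41 and 1.32 times the level of Ifitm2 in replicates 1 and 2. The Ifitm2 call was lost with total count scaling, and 44.5% of its 31-base words were found in no other gene.

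The Ifit genes encode proteins that bind viral RNA and make up a cluster of 99.3 kb on chromosome 19 (34550694 to 34650009). All 3 were lower in replicate 2, in the same direction and at unlike levels. Ifit3 stood at 20.98 and 13 TPM on 1333 and 430 fragments, with a log2 ratio of -0.79 (-0.97 to -0.65; adjusted p = 5.36e-25, exact binomial test). Ifit2 stood at 3.50 and 2.69 TPM with a log2 ratio of -0.36, a call lost with total count scaling. Ifit1 stood at 2.68 and 1.83 TPM on 269 and 95 fragments with a log2 ratio of -0.60. The level of Ifit3 was 7.83 and 7.10 times that of Ifit1. Its near copy Ifit3b holds 61.8% of the Ifit3 words, so the split of reads between that pair is uncertain.

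Isg15, the ubiquitin-like protein joined to other proteins during the response, had the widest gap among the effectors. It stood at 3.02 TPM on 72 fragments in replicate 1 and at 0.39 TPM on 5 fragments in replicate 2, 8.12-fold lower, with an interval of the log2 ratio from -4.69 to -1.73. It was below the filter on low counts and was not tested; with no filter its adjusted p was 1.66e-08 by the same binomial test. Its deposited TPM intervals, 2.32 to 3.68 and 0.13 to 0.80, did not overlap. In the second quantification the gap was smaller, at 2.79 and 0.671 TPM. Usp18, the protease that removes ISG15 from its targets, stood at 1.93 and 1.15 TPM on 125 and 36 fragments and was 1.96-fold lower. Bst2 (tetherin), which holds budding virus at the cell surface, stood at 9.94 and 5.13 TPM on 251 and 70 fragments and was 2.02-fold lower (adjusted p = 1.14e-07, exact binomial test). Isg15 and Usp18 thus rested on few fragments in replicate 2.

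The RNA sensor Ifih1 (MDA5) stood at 1.82 and 2.18 TPM and was not called, with an interval of -0.34 to 0.22. Neither was Oas1a, which makes 2-5A to activate RNase L, at 0.95 and 0.87 TPM, below the detection threshold, with 68.7% of its words in Oas1g. Rtp4, at 6.38 and 6.43 TPM, and Ifi35, at 4.17 and 4.31, were each not called. Trim25, a ubiquitin ligase of RNA sensing, was at 0.55 and 0.50 TPM on 111 and 42 fragments. It was called lower at a log2 ratio of -0.45 (-1.12 to -0.05), a call lost without the filter and with total count scaling. Parp14 was lowest, at 0.17 and 0.13 TPM on 50 and 20 fragments.

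Xaf1, an inducible antagonist of XIAP, was the 1 gene whose direction turned with the quantification. In the gene tables it stood at 16.3 and 14.7 TPM and was not called, with a log2 ratio of -0.15 (-0.38 to 0.06). In the second tables it stood at 25.7 and 35.7 TPM and was called higher in replicate 2, with a log2 ratio of 0.25. Its fragments in the second tables were 2.56 and 4.0 times those in the gene tables, against 1.47 and 1.73 times over all genes. The short transcript Xaf1-202 (651 bases) held 53.4% and 41.9% of its TPM in the first and 76.2% and 83.2% in the second. Of 30 genes tested in both, the other 29 had the same sign.

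**Figure D3:**
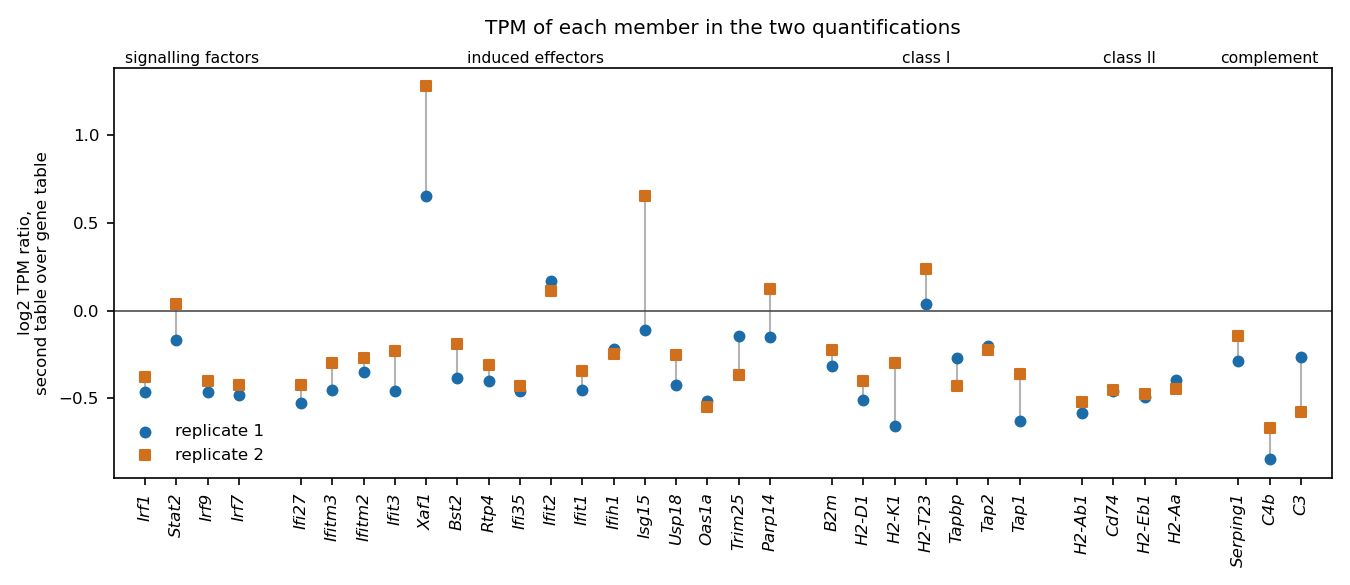
Log2 ratio of TPM in the second quantification over the gene table for each gene, in replicate 1 (circles) and replicate 2 (squares). Of the 34 genes, 28 lie below 0 in both libraries, with medians of -0.41 and -0.33, and Xaf1 stands highest at 0.65 and 1.28.

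Class I genes were the highest role group, with a median of 23.8 ± 0.460 TPM (SD, n = 2). Of 7, 2 were lower and 2 higher (28.6% each, against 36.4% and 26.2% of all genes). The other 3 were not called, and none was past 1.5-fold. Their median log2 ratio over all 7 was -0.03, the nearest to 0 of the role groups, with single ratios on both sides of 0. B2m, the light chain, stood at 248 and 320.3 TPM on 6953 and 4815 fragments. It was higher in replicate 2 with a log2 ratio of 0.29 (0.24 to 0.35, adjusted p = 1.19e-26, exact binomial test). Its transcripts had a GC content of 41.2% against a median of 50.8% over tested genes, and with the GC and length trends of all genes removed its ratio was 0.05. Both TPM values lay above the intervals deposited for them, 235 to 247 and 297 to 314.

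The classical heavy chains were both lower in replicate 2. H2-D1 stood at 63.9 and 51.3 TPM, with a log2 ratio of -0.44 (-0.52 to -0.36). H2-K1 stood at 30.0 and 24.1 TPM and was lower by a log2 ratio of -0.21, a call lost with total count scaling. The level of H2-D1 was 2.13 times that of H2-K1 in both libraries. H2-T23, the non-classical Qa-1 heavy chain, stood at 19.6 and 28.3 TPM on 1045 and 788 fragments and was higher in replicate 2, with a log2 ratio of 0.41 (0.28 to 0.55; adjusted p = 3.77e-09, exact binomial test). Without the GC and length trends that ratio was still 0.41. B2m was 2.19 and 3.09 times the summed level of these heavy chains. The heavy chains are close copies: 73.1%, 77.2% and 74.2% of the words of H2-D1, H2-K1 and H2-T23 were found in no other gene, and H2-D1 and H2-K1 shared more words with each other than with any other gene.

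None of the peptide loading genes was called. Tapbp (tapasin), which bridges class I to the transporter, stood at 23.5 and 22.7 TPM with a log2 ratio of -0.03 (-0.15 to 0.08). That ratio was 0.09 with total count scaling and 0.19 with the GC and length trends removed. Tap1 and Tap2, the partner chains of the peptide transporter, stood at 2.21 and 1.82 TPM and at 4.49 and 5.58 TPM. Their log2 ratios of -0.33 and 0.20 gave adjusted p = 0.0567 and 0.0727 by the exact binomial test, and Tap2 was called higher with total count scaling. A transcript with a retained intron, Tap2-202, held 73.6% and 71.6% of the Tap2 TPM, and protein coding transcripts 26.4% and 28.5%; in the second quantification the shares were 57.4% and 61.2%, and 42.6% and 38.8%. Tap1 and the proteasome gene Psmb9 share 212 exon bases on opposite strands, and since use of strand is not given, reads there cannot be told apart.

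All 4 class II genes were lower in replicate 2, 3 of them by at least 1.5-fold, with a median log2 ratio of -0.91. Of all tested genes 36.4% were lower, and 17.2% were lower at 1.5-fold. Cd74, the invariant chain that guides class II chains to the endosome, stood at 9.39 TPM on 420 fragments and 2.52 TPM on 61 fragments. It was 3.88-fold lower in replicate 2, with a log2 ratio of -1.74 (-2.37 to -1.57; adjusted p = 5.74e-30, exact binomial test). H2-Ab1, the beta chain of I-A, stood at 10.8 and 5.85 TPM on 450 and 130 fragments and was 1.95-fold lower. H2-Aa, its alpha partner, stood at 5 and 2.49 TPM on 194 and 51 fragments and was 2.15-fold lower. The chains of I-A kept close to one ratio, H2-Ab1 being 2.16 and 2.35 times H2-Aa, whereas Cd74 went from 0.868 to 0.431 times H2-Ab1.

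H2-Eb1, the I-E beta chain, stood apart within class II. It was at 5.17 and 3.67 TPM on 175 and 73 fragments, with a log2 ratio of -0.37 (-0.85 to -0.03; adjusted p = 0.0469, exact binomial test). That call was lost with total count scaling, with DESeq2 size factors and without the filter. Most of its TPM was on transcripts not annotated as protein coding: H2-Eb1-205, annotated for nonsense-mediated decay, held 53.9% and 82.1%, and protein coding transcripts held 6.33% and 7.81%; in the second quantification these shares were 37.5% and 76.5%, and 20.3% and 12.7%. The I-A chains differed in this, with 97.8% or more of the TPM of H2-Aa and H2-Ab1 on coding transcripts. The summed class I heavy chains were 5.41 and 8.64 times the summed H2-Aa, H2-Ab1 and H2-Eb1. Class II genes are made by border macrophages, dendritic cells and B cells; in bulk tissue, fewer cells of a type and less RNA per cell cannot be told apart.

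Complement genes were led by an inhibitor. Serping1, the C1 inhibitor, stood at 11.4 and 7.90 TPM on 686 and 246 fragments. It was 1.57-fold lower in replicate 2, with a log2 ratio of -0.63 (-0.87 to -0.44). C4b, the component cleaved after C1, stood at 7.06 and 3.15 TPM on 1025 and 277 fragments and was 2.09-fold lower, with a log2 ratio of -1.03 (-1.26 to -0.87; adjusted p = 4.54e-30, exact binomial test). Its paralog C4a holds 48.3% of its words. C3, the central component, was near the limit of detection, at 28 and 6 fragments. Its fragments and its TPM ran in opposite directions, with 0.15 TPM in replicate 1 and 0.40 in replicate 2: the 5136-base C3-201 held 94.5% of its TPM in replicate 1, and the 315-base C3-204 held 54.0% in replicate 2 on less than 1 fragment. No direction is read from C3.

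**Figure D4:**
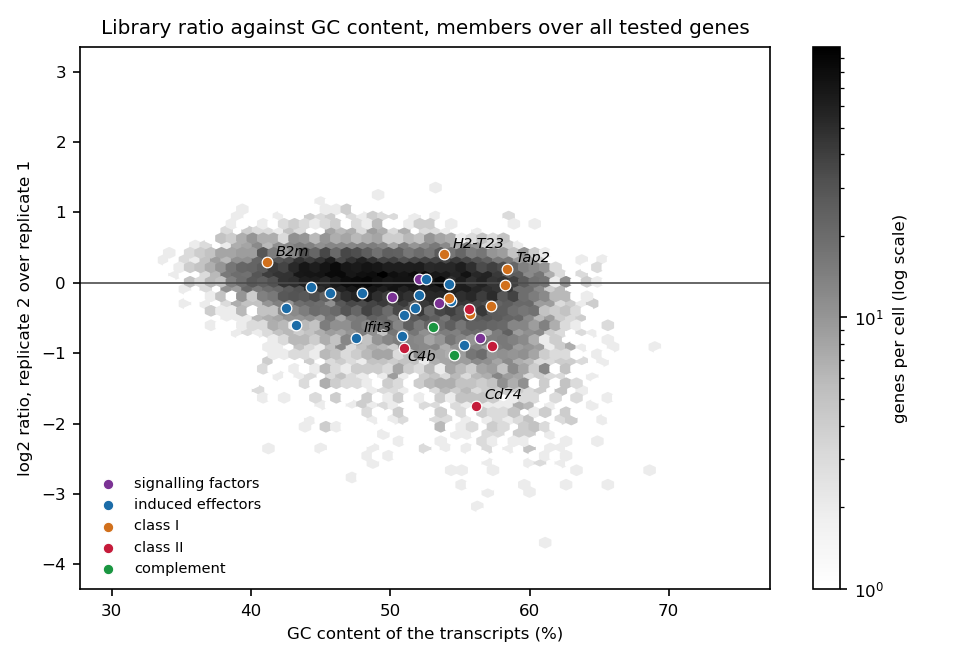
Log2 ratio of replicate 2 over replicate 1 against GC content of the transcripts (percent) for the tested genes of the 5 roles (coloured points) over all tested genes (grey cells, darker with more genes). B2m, at 41.2% GC, lies where all genes tend above 0, and Cd74 lies at the lower edge of the genes with like GC content.

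The MHC on chromosome 17 holds 10 of the 34 genes within 2117 kb (33915899 to 36032855), in the order Tapbp, H2-K1, Tap1, Tap2, H2-Ab1, H2-Aa, H2-Eb1, C4b, H2-D1 and H2-T23. Neighbours in it differed: Tap2 had a log2 ratio of 0.20 and the next gene, H2-Ab1, -0.90. H2-D1 and H2-T23, on the same side of C4b, had ratios of opposite sign. In that order H2-Ab1, H2-Aa, H2-Eb1, C4b and H2-D1 lie between Tap2 and H2-T23. Each was called lower, with ratios of -0.90, -0.93, -0.37, -1.03 and -0.44, where 36.4% of all tested genes were lower. The bounds Tap2 and H2-T23 were not called lower, so the choice of bounds fixed that run. Other genes within it were left out, and the H2-Eb1 call did not hold in all settings. Ifitm2, Ifitm3 and Irf7, within 312 kb on chromosome 7, were likewise each called lower, as were the 3 Ifit genes, beside the same 36.4% of all genes. No test of position was run. Median GC content of the 31 tested genes was 53.1%, and removing the GC and length trends left their median ratio at -0.32.

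Markers of the cell types that could carry these genes were set beside them, and their part in the differences was not tested. Calls in each list stand beside the 36.4% lower and 26.2% higher of all tested genes. Microglia markers were all detected (8 of 8), among them C1qa at 156 and 135 TPM, with a summed level of 583 and 629.8 TPM; 6 were higher and 1 lower, with a median log2 ratio of 0.14. Of the 6 border macrophage markers 2 were detected, summed to 16.1 and 15.7 TPM, led by Pf4 at 11.4 and 11.6; the median of the 5 tested was 0.01, and 1 was lower. T, B and dendritic cell markers summed to 1.75 and 1.43 TPM, the B cell marker Ms4a1 was at 0 fragments in both libraries, and Flt3 was the 1 of 8 detected. Neutrophil markers summed to 1.40 and 2.25 TPM. Erythroid genes were lower in replicate 2 in 4 of 4 tested, summed to 78.3 and 39.0 TPM, with a median log2 ratio of -0.85. Ptgds and Dcn were the highest of the fibroblast and meningeal markers. Of these 6, 4 were lower, with a median log2 ratio of -0.37. Col1a1 was past 1.5-fold lower, at -1.46, and Dcn was not called, at 0.09. Endothelial markers, led by Cldn5 and Itm2a, were split 3 lower and 3 higher of 7, with Cdh5 past 1.5-fold lower, at -0.79. Mural, choroid plexus and ependymal markers had median log2 ratios of 0.15, -0.18 and -0.25. Past 1.5-fold were the mural marker Kcnj8, higher at 0.63, and the ependymal marker Foxj1, lower at -1.68. All 7 neuronal, all 7 astrocyte and all 6 oligodendrocyte markers were detected, with median log2 ratios of -0.11, 0.16 and 0.07 and summed levels of 3216 and 3476, 1670.4 and 2036, and 3306 and 3585 TPM. Of the neuronal markers 4 were lower and 3 higher. The highest by level, Snap25 and Syt1, had log2 ratios of 0.12 and -0.11. Slc17a7, Rbfox3 and Neurod2 were past 1.5-fold lower, at -1.29, -0.90 and -0.72, and Gad1 and Gad2 were higher, at 0.28 and 0.35. With the GC and length trends removed, Slc17a7, Rbfox3 and Neurod2 were at -1.08, -0.60 and -0.43. Neurod2 was then short of 1.5-fold, as it was in the second quantification, at -0.52. Of the astrocyte markers 5 were higher and 2 lower, and of the oligodendrocyte markers 3 were higher and 2 lower.

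The other genes of the pathways, 150 on 8 lists that hold none of the 34, give the surroundings. Of the 92 tested, 34 were lower in replicate 2 and 17 higher, 37.0% and 18.5%, against 36.4% and 26.2% of all genes. At 1.5-fold 15 were lower (16.3%, against 17.2%) and 3 higher, with 3.22% of all genes higher. The lower shares thus lay near those of all genes. Scaled by total counts the split of the 92 was 22 lower and 26 higher, against 4134 and 5776 of 14649 genes in all. Counts on the single lists below stand beside the same shares of all genes. None of the 9 interferon genes listed had a fragment in either gene table, which allows up to 0.0578 CPM in replicate 1 and 0.112 in replicate 2 for each (3 fragments of the total); poly(A)+ RNA of whole cortex limits what could be seen.

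**Figure D5:**
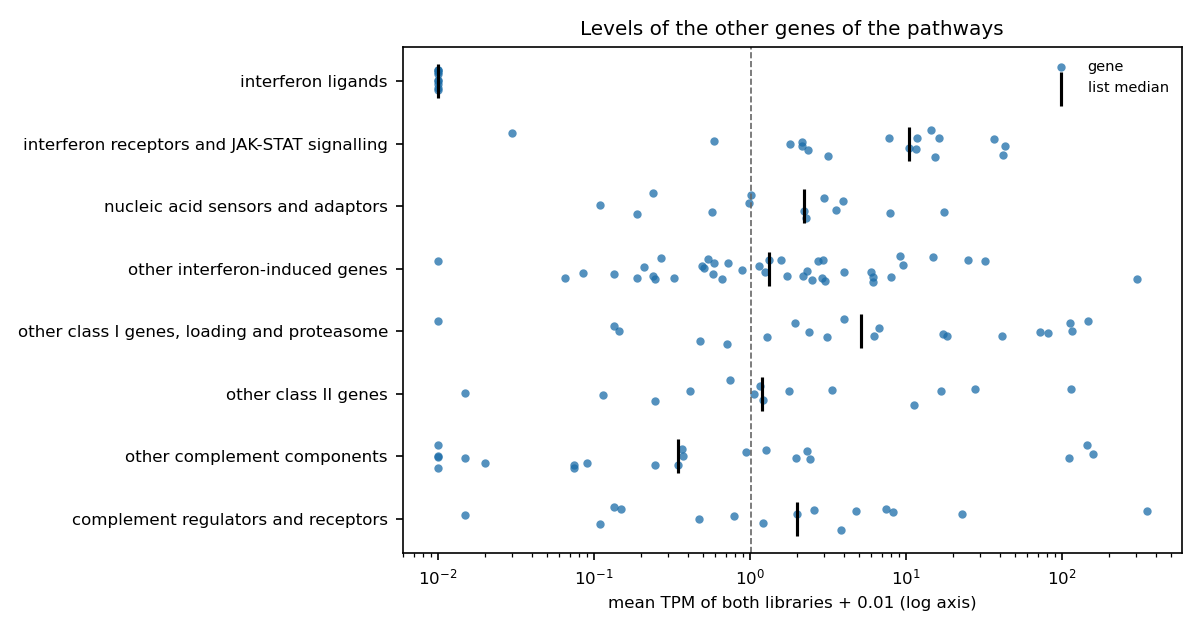
Mean TPM of both libraries plus 0.01 (log axis) for each of the other pathway genes (points), by list, with the list median (bars) and a dashed line at 1 TPM. The 9 interferon genes sit at 0, the receptors and JAK-STAT genes have the highest list median at 10.3 TPM, and Clu and Ly6e reach furthest right.

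Of the receptors and signalling genes, 15 of 17 were detected, with a median of 10.3 ± 1.59 TPM (SD, n = 2). Ifnar2, a receptor chain for type I interferon, stood at 45.3 and 41.2 TPM and Ifngr2, a chain of the interferon gamma receptor, at 37.4 and 45.98, whereas Ifnlr1, the receptor chain for lambda interferons, was at 0.02 in both. Of 16 tested, 8 were lower and 6 higher. Irf8, a factor of the myeloid lineage, was higher by a log2 ratio of 0.63, and the feedback inhibitors Socs1 and Socs3 had log2 ratios of -0.72 and -0.63. Irf2, a repressor of induced genes, had a log2 ratio of -0.80 by fragments, while its TPM was 12.99 and 17.7.

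Of the other induced genes, 13 were lower and 2 higher of 28 tested (46.4% and 7.14%, against 36.4% and 26.2% of all genes). At 1.5-fold 8 were lower (28.6%, against 17.2%) and 1 higher. The median log2 ratio of the 28 was -0.37. Ly6e, a surface protein that restricts coronavirus fusion, was the highest of them, at 400.2 and 206 TPM. Adar, the RNA editing enzyme, stood at 45.5 and 18.6 TPM with a log2 ratio of -0.81, and Parp12, a zinc finger antiviral protein, fell from 475 to 48 fragments, a log2 ratio of -2.19. Herc6, the mouse ligase for ISG15, was the 1 higher at 1.5-fold, at 388 and 358 fragments and a log2 ratio of 0.68. Ifi44l was at 0 in both. Among sensors, 4 were lower and 1 higher of 9, led by Tbk1 at 14.3 and 20.6 TPM and Tlr3 at 7.31 and 8.40; Ddx58 (RIG-I), with the sister sensor Ifih1 not called, was lower at -0.62, and Ikbke was lowest.

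Outside the named class I genes, 3 were lower and 4 higher of 15 tested, led by the immunoproteasome subunit Psmb10 at 139 and 153 TPM and the chaperone Calr at 120.2 and 113. Canx, the calnexin that folds heavy chains, was higher by a log2 ratio of 0.99, and H2-M2 was at 0. Of the other class II genes, 2 were lower and 1 higher of 7 (28.6% and 14.3%, against 36.4% and 26.2% of all genes). Both lower genes, Rfxap and Rfx5, encode subunits of the RFX complex that binds class II promoters. Rfxank and Ciita, on the same list, were not called lower, and a link to the levels of the class II genes was not tested. Rfxap went from 1253 to 105 fragments (log2 ratio -2.60) and Rfx5 from 312 to 93 (-0.83). The protease Ctss, which trims the invariant chain, was higher at 107 and 123 TPM, and H2-DMa, which loads class II peptides, stood at 25.6 and 29.8 TPM and was not called; H2-Eb2 was lowest.

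Complement in this tissue was mostly its first component and its regulators. C1qb stood at 149 and 167 TPM and C1qa at 156 and 135, far above C4b and C3 in both libraries; of 6 other components tested 2 were lower and 1 higher, and Mbl1 was at 0. Clu, an inhibitor of the membrane attack complex made by astrocytes, stood at 308 and 391 TPM, the highest of the regulators, and Cr1l, a regulator of C3 convertases, at 22.6 and 23.3. Of 11 regulators and receptors tested, 2 were lower and 2 higher. The receptor C3ar1 was lower, with a log2 ratio of -0.71, and Cfi, the factor I protease, had 1 fragment in replicate 1 and 0 in replicate 2.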

How the data were processed

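Poly(A)+ RNA of left cerebral cortex was analysed in 2 libraries of 1 group. The gene tables and first transcript tables hold expected counts and TPM, and the transcript tables also the percent of a gene's TPM on each transcript, as deposited by the authors, per the file headers; the second transcript tables hold estimated counts and TPM, per the file headers. Posterior SDs and TPM interval bounds in the gene tables are also the authors', at a level that no label or header states. The deposited tables are on mm10 with GENCODE M21; aligner, quantifiers, their versions and strand use: not given in the sources used here. Counts are deposited without normalization, and 26248 rows with numeric names and 97 spike-in rows (1.73e-05 and 3.35e-05 percent of fragments) stayed out. Depth was 51888490 and 26776276 fragments on genes, and no molecular identifiers are known, so intervals and floors cover counting error only. Deposited effective lengths, by which TPM is scaled, also differed between the libraries. They were longer in replicate 2 for B2m (696.5 and 736.8 bases) and shorter for Irf9 (2266.3 and 2150.5). Their part in the TPM differences was not tested.

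Expected counts were rounded and compared per gene, replicate 2 against replicate 1, with an exact two-sided binomial test (scipy 1.17.1) at TMM effective library sizes (edgeR 4.0.16, R 4.3.3), Benjamini-Hochberg adjusted at 0.05 over the 14656 genes whose mean CPM reached 1. It compares 2 libraries, not conditions. Log2 ratios use a pseudocount of 0.5 CPM, which pulls low genes toward 0. GC content and length trends were removed with lowess (fraction 0.3, statsmodels 0.14.6), which changes ratios and not the p-values. Sharing was the share of 31-base words of a gene's transcripts found in other genes. Alternatives were total counts, DESeq2 1.42.0 size factors, other filters and pseudocounts, the second tables summed per gene, and each library alone. The script was tested on simulated data.

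The 34 genes and all lists were chosen with earlier results of these data known. All 34 are accounted for. Of each other pathway list the 2 highest, the lowest and genes called at 1.5-fold are named, at most 5 a list, and of marker lists the 2 highest. Named after their values were seen were Socs1, Socs3, Rfxank, Ciita, Ms4a1, Flt3, Col1a1, Cdh5, Kcnj8, Foxj1, Rbfox3, Slc17a7, Neurod2, Gad1 and Gad2. A few marker genes that the rule would name are left out here.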

Additional observations from a re-analysis of the deposited data

How the results depend on the processing

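No paired analysis was possible because the labels gave only 1 group. Of 236 values for the 31 tested genes under the alternatives, 93 (other pseudocounts, trends removed) keep the p-value by construction. Of the other 143, 128 stayed on their side of the threshold, 11 lost the call, 3 gained one and 1, Xaf1, was called in the opposite direction (0.25 in the second quantification). The sign of the ratio changed in 6 of the 236, for Xaf1 and for Ifi27, Tapbp, Ifih1 and Ifi35, whose ratios were near 0 and not called. Total count scaling gave 4 genes higher in place of 2, and 22 and 26 other pathway genes lower and higher in place of 34 and 17. Of 14649 genes in all it gave 4134 lower, 5776 higher and 830 higher at 1.5-fold. A mean CPM of at least 5 left 20 of the genes in place of 31. Of those 20, 11 were lower and 5 lower at 1.5-fold, in place of 18 and 10 of 31. Of 11412 genes in all at that filter, 4609 were lower, 2012 lower at 1.5-fold and 258 higher at 1.5-fold. A pseudocount of 2 gave 6 of 31 lower at 1.5-fold, against 2130 of 14656 genes. With it, 252 of all genes were higher at 1.5-fold. In the second quantification the median level was 3.08 TPM for signalling factors, 3.26 for effectors, 19.5 for class I and 3.69 for all 34 genes, against 3.79, 3.67, 23.8 and 4.90; over detected genes alone it was 6.97 for effectors and 6.10 for all. Leaving out replicate 1 or replicate 2 gave medians of 3.70 to 3.88 for signalling factors, 3.50 to 3.84 for effectors, 23.5 to 24.1 for class I, 3.10 to 7.28 for class II, 3.15 to 7.06 for complement and 4.32 to 5.48 for all, with 29 to 30 genes detected; these settings leave no comparison between libraries. Depth limits Isg15, C3, Parp14 and Oas1a most, at 72 fragments or fewer in each library.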
